A study of Mus musculus with 2 samples.

Results

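Chemokines and their receptors were examined in total RNA of the hippocampus of aged mice. The genes were taken by symbol as numbered Ccl, Cxcl, Ccr and Cxcr genes together with Cx3cl1, Xcl1 and Xcr1. Each had to have a protein-coding transcript in the annotation, which gave 56 genes. Of these, 15 held more than 3 expected counts in both libraries, out of 55536 annotated genes. The study comprised 1 group of 2 libraries, numbered as replicates 1 and 2. Both came from female B6CASTF1/J mice, the first-generation hybrid of the strains C57BL/6J and CAST/EiJ, at 18 to 20 months of age, with 300 ng of input RNA each, and the labels name no treatment. They give the tissue as layer of hippocampus. The libraries have separate biosample labels and the same donor label, so the labels do not show whether they came from separate animals. With a single group there was no contrast to test and no p-value was computed. Differences between the libraries describe those libraries only.

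Chemokines are small secreted or membrane-anchored proteins that attract cells along concentration gradients. They are classed as CC, CXC, CX3C and XC by the spacing of conserved cysteines near the start of the mature protein. Their receptors are G protein-coupled and mostly signal through Gi proteins. In the brain, Cx3cl1 of neurons acts on Cx3cr1 of microglia, and Cxcl12 with Cxcr4 places granule cells in the dentate gyrus. Most other members of the family are known from inflamed or lymphoid tissue.

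The class of each ligand can be read in its coding sequence. The following stretches of 30 coding bases come from the C57BL/6J reference (mm10, GENCODE M21 transcripts) and run 5′ to 3′ on the coding strand. Capitals mark the codons of the first conserved cysteines, which lie side by side in CC ligands and are spaced by 1 residue in CXC ligands and by 3 residues in Cx3cl1. For the receptor, capitals mark the codons of the Asp-Arg-Tyr motif after the third membrane helix, at which G proteins couple. The stretches shown are those of the ligands with the highest level and of the receptor Cxcr4.
Cx3cl1 (CX3C, chr8:94778042-94778071, plus strand): atgacgaaaTGCgaaatcatgTGCgacaag
Cxcl14 (CXC, minus strand, joined across an intron): gggtccaagTGTaagTGTtcccggaagggg
Cxcl12 (CXC, chr6:117171499-117171528, plus strand): agctaccgaTGCcccTGCcggttcttcgag
Ccl27a (CC, chr4:41769930-41769959, minus strand): agcactagcTGCTGTactcagctctataga
Ccl25 (CC, chr8:4353888-4353917, plus strand): tttgaagacTGCTGCctgggttaccagcac
Ccl17 (CC, chr8:94811203-94811232, plus strand): ggccgagagTGCTGCctggattacttcaaa
Cxcr4 (receptor, chr1:128589500-128589529, minus strand): atcagcctgGACCGGTACctcgctattgtc

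Among the genes that the symbol rule takes, nearly all RNA was ligand RNA, and most of it came from Cx3cl1. The rule does not take the receptor Cx3cr1, at 12.76 and 12.93 TPM, or the atypical receptors Ackr1, at 22.30 and 24.05, and Ackr3, at 6.43 and 5.50. Among the 56 genes, 12 of 38 ligands and 3 of 18 receptors exceeded the count minimum, as did 69.4% of all nuclear protein-coding genes. These were 7 of 23 CC ligands, 4 of 13 CXC ligands and the single CX3C ligand, while neither Xcl1 nor Xcr1 did. Levels are given as TPM, an abundance corrected for transcript length and for the size of the library, from the RSEM-layout tables unless the second, kallisto-layout quantification is named. Ligands held 98.5 ± 0.355% (SD, n = 2) of the summed TPM of the 15 genes. Cx3cl1 alone held 51.1 ± 0.872%, and Cx3cl1, Cxcl14, Ccl27a and Cxcl12 together held 94.4 ± 0.105%. The median over the 15 genes was 1.67 TPM, below the median of 10.4 TPM over the 15286 nuclear protein-coding genes that passed the same count minimum. In all, 8 of the 15 genes reached 1 TPM in both libraries. So did 57.8% of all nuclear protein-coding genes, whether or not they passed the count minimum.

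**Figure D1:**
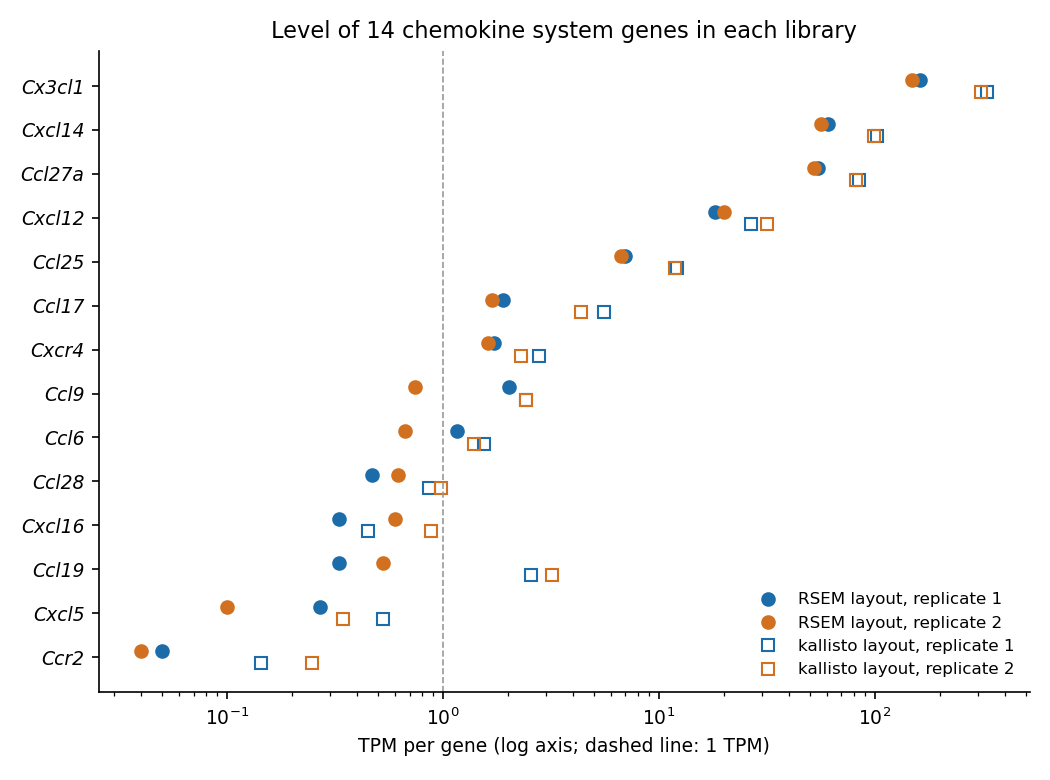
Level of 14 genes in TPM (log axis), with filled circles for the RSEM layout and open squares for the kallisto layout, blue for replicate 1 and orange for replicate 2; the dashed line marks 1 TPM. Cx3cl1 stands highest at 161.93 and 148.65 TPM in the RSEM layout and Ccr2 lowest at 0.05 and 0.04, and each square lies to the right of the circle of the same colour in its row.

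The order of the higher genes was the same in both libraries. From Cx3cl1 through Cxcl14, Ccl27a and Cxcl12 to Ccl25, the library values of neighbouring genes did not overlap. Below them, the ranges of Ccl17, Cxcr4 and Ccl9 overlapped, as did those of Ccl9 and Ccl6 and those of Ccl28, Cxcl16 and Ccl19. Genes whose ranges overlap cannot be ordered beyond their spread. In the kallisto layout all 15 genes stood higher, by between 1.43-fold for Cxcl16 and 6.72-fold for Ccl19. The median of this ratio over 14348 genes with a mean of at least 1 TPM was 1.67. Misc_RNA genes took 35.7% of RSEM-layout TPM in replicate 1 and 38.1% in replicate 2, so the libraries were compared by scaled counts and not by TPM.

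Cx3cl1 encodes fractalkine, a chemokine on a mucin-like stalk that is anchored in the membrane and can be shed. It held 12668 counts in replicate 1 and 12741 in replicate 2, or 161.93 and 148.65 TPM. Its level of 155 ± 9.39 TPM (SD, n = 2) ranked 387 among 22015 nuclear protein-coding genes. Scaled by TMM, the counts differed by 0.982-fold (replicate 2 over replicate 1, 95% counting interval 0.958 to 1.01), so the libraries were alike within counting error. Transcript Cx3cl1-201 carried 94.75% and 97.45% of the gene's TPM. Its length is 3315 bases. The kallisto layout gave it 71.7% and 75.8%, and put 634 and 590 counts on Cx3cl1-203, which was listed at 0 in the RSEM layout. Cx3cl1-203 is annotated as subject to nonsense-mediated decay, the pathway that removes messages with an early stop codon.

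Cxcl14 is a conserved CXC chemokine whose RNA also marks a group of hippocampal interneurons. It held 2676 and 2669 counts, or 60.70 and 56.64 TPM, and the scaled ratio was 0.974 (0.923 to 1.03). All of its RSEM-layout counts lay on Cxcl14-201, of which none of the 50-base stretches occurs in another annotated gene.

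Cxcl12 encodes a chemokine that acts on Cxcr4 and on the scavenger receptor Ackr3, and its RNA is known from vessels, meninges and neurons. It had 1517 and 1804 counts, or 18.29 and 20.12 TPM. Replicate 2 was 1.16-fold higher in scaled counts (1.08 to 1.24), which exceeds counting error, and the spread between animals is unknown. Markers of cells that border vessels and meninges were also higher in replicate 2. The summed scaled counts of 8 meningeal fibroblast markers were 1.83-fold higher, those of 7 endothelial markers 1.15-fold and those of 7 mural markers 1.09-fold. Of these markers, 8 of 8, 7 of 7 and 6 of 7 were higher in replicate 2. Markers of red blood cells were higher there too, 5 of 5 and 1.57-fold in sum, at 345 and 521 summed TPM. For neurons, the summed scaled counts of 7 excitatory neuron markers were 0.999-fold in replicate 2 over replicate 1, and those of 9 interneuron markers 1.02-fold. The part of any of these cells in the Cxcl12 difference was not tested. In bulk tissue, fewer cells of a type and less RNA per cell cannot be told apart.

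Cxcl12 was divided over 3 coding transcripts. Cxcl12-202, Cxcl12-203 and Cxcl12-201 encode 89, 93 and 119 codons, the forms known as alpha, beta and gamma. Their coding sequences are the same for the first 266 bases and then end differently, and the gamma form has a long basic tail that binds heparan sulfate. The sequences below show the last shared bases in lower case and the bases of each form after them in capitals, through the stop codon for alpha and beta and for the start of the tail for gamma. They follow the messenger RNA, across an exon junction where there is one.
Cxcl12-202 (alpha): agctttaaacaaGTAA
Cxcl12-203 (beta): agctttaaacaaGAGGCTCAAGATGTGA
Cxcl12-201 (gamma, first bases of the tail): agctttaaacaaGGGGCGCAGAGAAGAAAA
The alpha form held 49.6% of the gene's TPM in replicate 1 and 52.73% in replicate 2. The gamma form held 34.14% and 36.97%, and because its transcript of 5627 bases is longer it took more reads, with 880.72 and 1121.24 expected counts against 411.8 and 514.6. Both quantifications ranked alpha before gamma in both libraries, with kallisto-layout shares of 51.5% and 54.8% for alpha and 43.2% and 42.8% for gamma. The beta form depended on the quantification. The RSEM layout gave it 157.92 and 130.86 counts, or 11.16% and 7.86% of TPM, whereas the kallisto layout gave it 0.352 and 0 counts.

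Ccl27a, a ligand of Ccr10 best known from skin, ranked 3 in level at 54.64 and 52.10 TPM, on 776 and 794 rounded counts. The scaled ratio was 0.999 (0.904 to 1.10). The gene lies on chromosome 4 (41769467 to 41774247, minus strand), in a region that holds near copies of it. Between 32.7% and 78.2% of the 50-base stretches of its 19 transcripts also occur in other genes. The 5 genes that share most of them are Ccl27b, Gm13306, Gm20878, Gm21586 and Gm21953, of which 3 held counts. Their TPM summed to 11.6 in replicate 1 and 9.87 in replicate 2. Ccl27a together with these copies came to 64.1 ± 3.04 TPM, above Cxcl14, so the rank of Ccl27a below Cxcl14 rests on how reads were divided among the copies. The level of Ccl27a alone is therefore uncertain. No transcript dominated: the leading one, Ccl27a-206, held 24.24% and 17.67% of TPM in the RSEM layout and was listed at 0 in the kallisto layout. There, Ccl27a-204 led with a mean share of 33.9%.

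Ccl25, a ligand of Ccr9 known from thymus and small intestine, held 278 and 300 counts, or 6.95 and 6.65 TPM, with a scaled ratio of 1.05 (0.892 to 1.24). In the RSEM layout, few of these reads were assigned to messages that encode the chemokine. Protein-coding transcripts held 21.5% of its TPM in replicate 1 and 6.15% in replicate 2, equal to 1.49 and 0.41 TPM. Retained-intron transcripts, which keep intron sequence and encode no full protein, held 46.1% and 50.4%, and nonsense-mediated decay transcripts held 29.1% and 38.8%. The kallisto layout gave the coding transcripts 52.9% and 41.6%, so the coding share of Ccl25 is poorly fixed. Ccl25 overlaps the gene Elavl1 on the opposite strand by 204 bases. The strand setting of the quantification is not given, so reads from that stretch cannot be told apart.

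Ccl17, a ligand of Ccr4, lies 28.0 kb from Cx3cl1 on chromosome 8. It held 20 and 19 counts, or 1.89 and 1.68 TPM, and the interval of the scaled ratio was wide (0.928, 0.468 to 1.83). Its only annotated transcript shares no 50-base stretch with another gene. Ccl22, the other Ccr4 ligand and its neighbour on the far side of Cx3cl1, held 3 and 2 counts and was not above the minimum.

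Ccl9 and Ccl6 are rodent CC chemokines that act on Ccr1, and their genes lie 9.24 kb apart on chromosome 11. Ccl9 had 82 counts in the first library and 59 in the other, and scaled counts were 1.42-fold higher in replicate 1 (1.01 to 2.02). Its TPM lay further apart, at 2.03 and 0.74. The long coding transcript Ccl9-201 was at 1.00 and 0.74 TPM. The rest of the TPM of replicate 1 came from 7.85 counts on Ccl9-202, a transcript of 398 bases, which carried 1.03 TPM and was at 0 in replicate 2. In the kallisto layout Ccl9 stood at 2.43 and 2.42 TPM. Ccl6 held 28 and 19 counts, or 1.16 and 0.67 TPM, 1.51-fold higher in replicate 1 with an interval that includes no difference (0.813 to 2.86). Ccl6 lies within the gene E230016K23Rik of the opposite strand. Summed scaled counts of 8 homeostatic microglia markers were 1.01-fold in replicate 2 over replicate 1, and the part of microglia in these differences was not tested.

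The remaining ligands were below 1 TPM in both libraries. Ccl28, a mucosal chemokine that acts on Ccr10 and Ccr3, held 39 and 59 counts, or 0.47 and 0.62 TPM (ratio 1.48, 0.969 to 2.27). Ccl19, a ligand of the lymphoid homing receptor Ccr7, had 4.59 and 7.94 expected counts, all on the non-coding transcript Ccl19-202, and both coding transcripts were at 0. In the kallisto layout it had 17.5 and 22.8 counts, with 45.6% and 52.9% of TPM on coding transcripts. Between 49.1% and 68.2% of the 50-base stretches of its transcripts occur in other genes. Among these, the protein-coding gene Gm2564 held 72.41 and 83.21 counts, so Ccl19 itself made up 5.47% and 6.96% of the summed TPM of the gene and its 4 near copies. Whether these reads belong to Ccl19 or to Gm2564 cannot be told from the tables.

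Cxcl16, a membrane-anchored chemokine that acts on Cxcr6, differed most between the libraries among the genes with at least 10 counts on average. It had 11 counts in replicate 1 and 28 in the other library, or 0.33 and 0.60 TPM, and replicate 2 was 2.49-fold higher in scaled counts (1.20 to 5.53). The kallisto-layout counts of 15 and 31 lay in the same direction. On the coding transcript Cxcl16-201 the expected counts were 2.1 and 15.87, and on the nonsense-mediated decay transcript Cxcl16-202 they were 8.9 and 12.13. Markers of border macrophages were also higher in replicate 2. The summed scaled counts of the 6 markers were 1.42-fold higher, at 4.70 and 5.92 summed TPM, and their part in the difference was not tested. Single intervals excluded 1 for Mrc1 (1.64-fold, 1.33 to 2.03) and F13a1 (1.48-fold, 1.11 to 1.99). They included 1 for Cd163, Lyve1, Pf4 and Ms4a7. Cxcl16 overlaps Zmynd15 on the opposite strand by 552 bases, and Zmynd15 held 9 and 3 counts. Cxcl5, a neutrophil attractant that acts on Cxcr2, held 10 and 4 counts, with an interval that includes no difference (0.391, 0.0894 to 1.35).

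The numbered CC and CXC receptors that are described here had low levels, below those of Cx3cr1 and Ackr3, which the symbol rule does not take. Cxcr4, the signalling receptor of Cxcl12, held 72 and 70 counts, or 1.73 and 1.61 TPM, with a scaled ratio of 0.949 (0.673 to 1.34). All of its RNA was assigned to coding transcripts, mainly Cxcr4-201 at 91.47% and 87.25%. Ccr2, the receptor that brings monocytes into tissue, was at the limit of detection in the RSEM layout. It held 3.08 and 4.16 expected counts there, or 0.05 and 0.04 TPM. In the kallisto layout Ccr2 held 10.3 and 14.8 counts, or 0.144 and 0.247 TPM. Between 2.27% and 4.96% of the 50-base stretches of its transcripts also occur elsewhere, so its few counts are uncertain. Most markers listed for blood leukocytes held at most 3 counts in either library, and only Csf3r had a mean TPM above that of Cxcr4. Which cells the reads of Csf3r came from was not tested. Of 8 neutrophil and monocyte markers, 5 were at 0 in both libraries (S100a8, Ly6g, Camp, Plac8 and Retnlg), while Csf3r held 162 and 151 counts, or 2.49 and 2.47 TPM, and Ly6c2 held 12 and 24 counts. Of 10 lymphocyte markers, 7 held at most 3 counts in either library, and Cd8b1 was at 0 in both. The T cell receptor gene Trac held 11 and 24 counts, or 0.52 and 1.63 TPM, and Cd4 held 6 and 8.

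Ligand and receptor were both above the minimum for few of the pairs listed here, and the number depended on the quantification. Of 33 textbook pairs of a chemokine and a receptor, 3 in the RSEM layout had both genes above 3 counts in both libraries, 8 had the ligand only, 7 the receptor only and 15 neither. The 3 pairs were Cx3cl1 with Cx3cr1, Cxcl12 with Cxcr4 and Cxcl12 with Ackr3. Cx3cr1, the fractalkine receptor of microglia, was at 12.76 and 12.93 TPM, so the ligand exceeded it 12.7-fold in replicate 1 and 11.5-fold in replicate 2. The ratio of Cxcl12 to Cxcr4 was 10.6 and 12.5, and that of Cxcl12 to Ackr3 was 2.84 and 3.66. In the kallisto layout these ratios were 16.5 and 14.6, 9.58 and 13.8, and 2.92 and 3.82. There, 6 pairs had both genes above 3 counts in both libraries, with Ccl25 and Ccr9, Cxcl5 and Cxcr2, and Cxcl11 and Ackr3 added. Ligands whose listed receptor was not counted included Ccl27a, whose receptor Ccr10 held 2 and 0 counts, and Ccl17. The listed receptor of Ccl17, Ccr4, was at 0 in both libraries in the RSEM layout and at 0 and 7.26 counts in the kallisto layout. The list holds Ackr3 as its only atypical receptor and has no pair for Cxcl14, Ccl9 or Ccl6. Some receptors recur in it, and the pairs of Ccl2, Ccl7 and Ccl12 counted as receptor only on 3.08 and 4.16 expected counts of Ccr2. These numbers therefore hold for the listed pairs only.

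**Figure D2:**
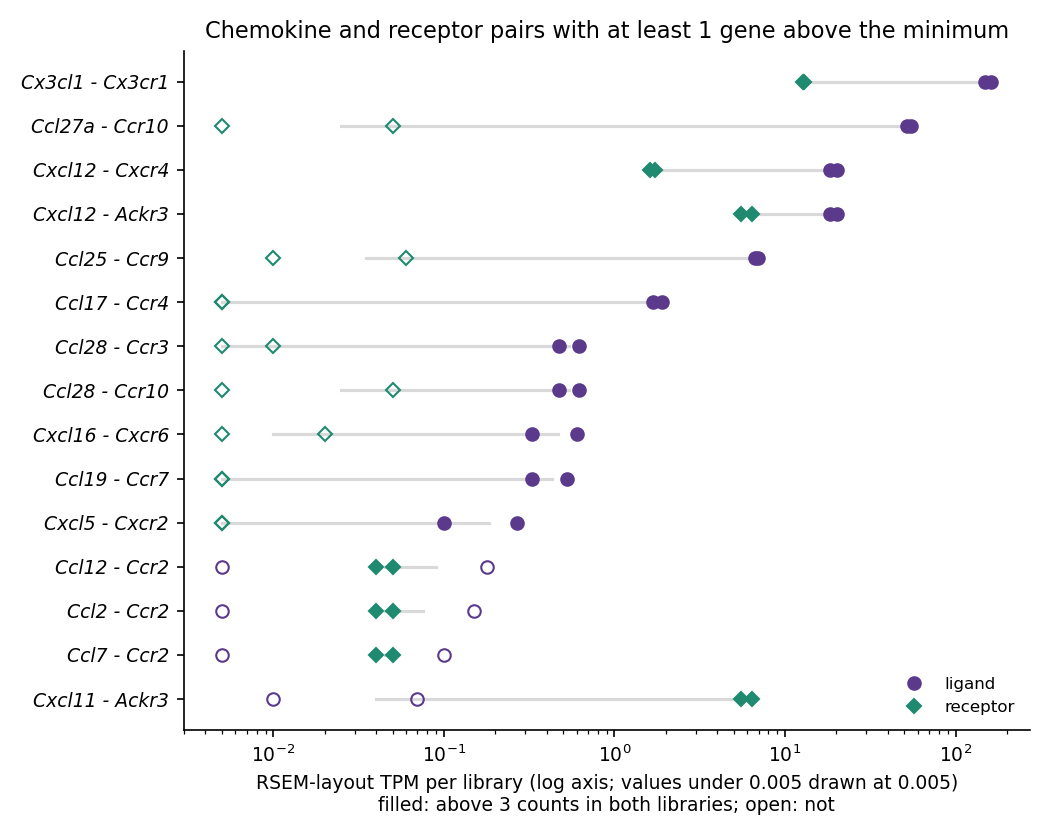
RSEM-layout TPM (log axis) of the ligand (circles) and receptor (diamonds) of 15 pairs with at least 1 gene above the minimum, with 1 symbol per library, filled where the gene exceeded 3 counts in both libraries and open where it did not; values listed as 0 are drawn at the left edge. Both symbols are filled only for Cx3cl1 with Cx3cr1, Cxcl12 with Cxcr4 and Cxcl12 with Ackr3, and the ligand lies to the right of the receptor in all 3.

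Not all of this RNA was assigned to coding messages. Coding transcripts held over 90% of TPM in both libraries for 7 of the 15 genes, which were Cx3cl1, Cxcl14, Cxcl12, Ccl17, Cxcr4, Cxcl5 and Ccr2. They held under 50% in both libraries for Ccl25, Cxcl16 and Ccl19. In the kallisto layout none of these 3 was under 50% in both libraries, and coding transcripts held 56.9% and 61.1% of Cxcl16. The leading transcript was the same in both quantifications for 6 of the 9 genes with a mean of at least 1 TPM. Ccl25 and Ccl27a were among those for which it differed. Coding shares and leading transcripts were not counted over all genes, so these numbers describe the 15 genes only.

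**Figure D3:**
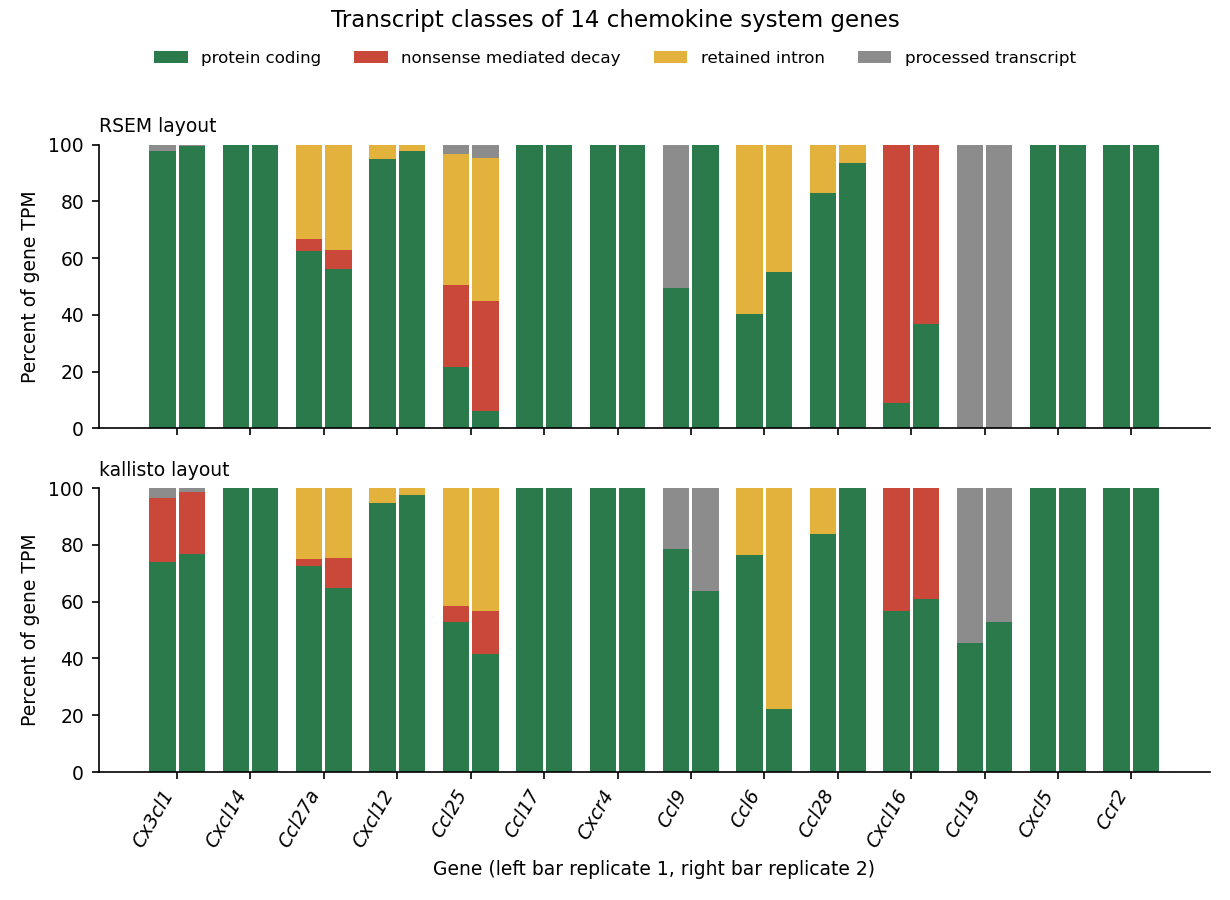
Percent of the TPM of each of 14 genes held by coding, nonsense-mediated decay, retained-intron and processed (non-coding) transcripts, with replicate 1 as the left and replicate 2 as the right bar of each gene, in the RSEM layout (top) and the kallisto layout (bottom). The bars of Cxcl14, Ccl17, Cxcr4, Cxcl5 and Ccr2 are all coding in both layouts, while Cx3cl1 is 97.7% and 99.5% coding in the RSEM layout and 74.1% and 76.8% in the kallisto layout.

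No well-counted chemokine gene was far apart between the libraries. Genes were called apart if over 2-fold different in scaled counts, given 50 or more counts on average. None of the 8 chemokine genes with so many counts was called, against 0.384% of all 14307 such genes. None was over 1.5-fold apart either, against 1.64% of all. At a mean count of at least 10, only Cxcl16 of 12 genes was called, against 2.38% of 18350 genes in either direction and 1.30% with replicate 2 higher. Over the 12 genes, the median log2 ratio of replicate 2 to replicate 1 was -0.01, beside 0.00 over all genes of that mean count, with 5 genes higher in replicate 2 and 7 in replicate 1. The median size of the ratio without its sign was 0.11 for the 12 genes and 0.09 for all genes. The counting interval of the fold did not include 1 for Cxcl12, Ccl9 and Cxcl16. The share of all genes with such an interval was not computed, so these genes are not set apart from others by it.

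**Figure D4:**
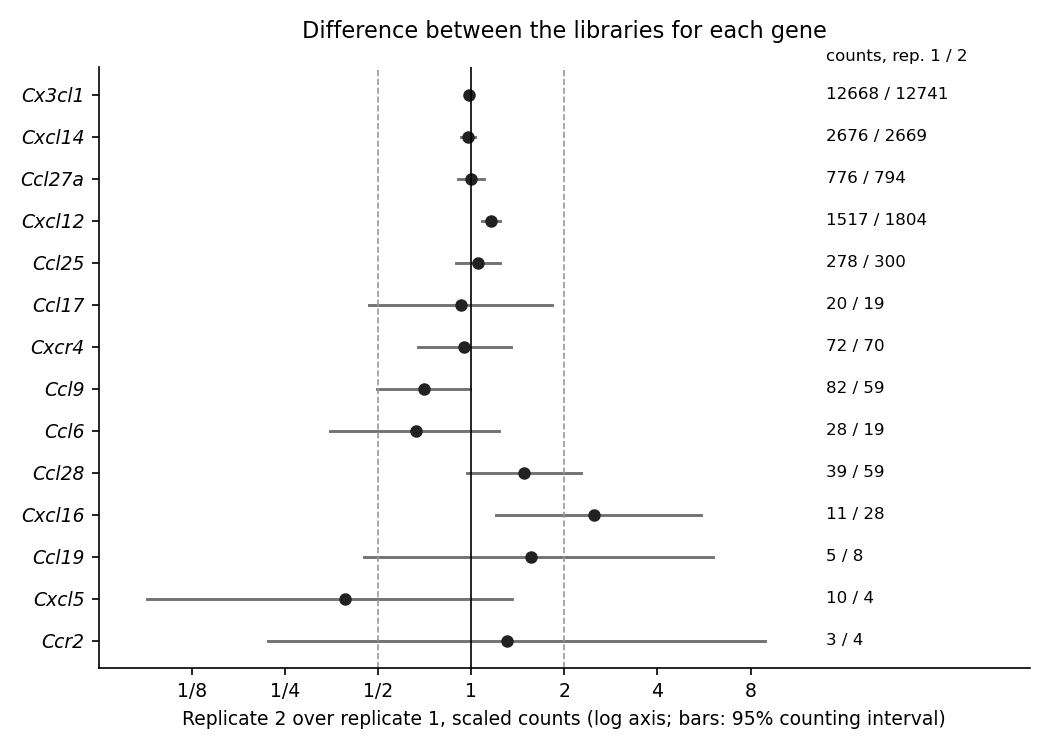
Scaled counts of replicate 2 over replicate 1 for 14 genes (log axis), with 95% counting intervals as bars, the rounded counts of both libraries at the right and dashed lines at 2-fold in each direction. The points of Cx3cl1 and Cxcl14 lie just left of 1 with bars shorter than those of Ccl19, Cxcl5 and Ccr2, which held at most 10 counts per library.

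The whole libraries were close in depth, with 35358099 gene-assigned counts in replicate 1 and 36307276 in replicate 2. The 15 chemokine genes took 0.0518% and 0.0516% of them. Markers of the labelled tissue were present, with all 7 excitatory neuron, 9 interneuron, 6 astrocyte, 7 oligodendrocyte and 8 microglia markers at 1 TPM or more in both libraries. Summed scaled counts of 7 markers of choroid plexus, a tissue next to the hippocampus, were 0.407-fold in replicate 2 over replicate 1, and those of 7 oligodendrocyte markers 0.765-fold. Of 8 meningeal fibroblast markers, 6 were called apart with replicate 2 higher.

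The remaining 41 genes did not exceed the minimum. Of them, 18 were at 0 in both libraries, 17 had at most 3 counts in each and 6 exceeded 3 counts in a single library. A count of 0 still allows up to 3 counts, or 0.0848 CPM in replicate 1 and 0.0826 CPM in replicate 2, and this limit covers counting error only. Just inside the minimum were Ccr2 with 3.08 and 4.16 counts, Cxcl5 with 10 and 4, and Ccl19 with 4.59 and 7.94. Just outside it were Cxcl1 with 3 and 7 counts, then Ccl22 and Ccr1 with 3 and 2 each and Ccr9 with 4 and 2. The monocyte attractant Ccl2 held 0 and 3 counts, and the interferon-induced Cxcl10 held 1 and 1. Cxcl9 and Cxcl13, which attract T and B cells, were at 0 in both libraries.

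Passing the minimum depended on the quantification for 7 of these genes, which exceeded 3 counts in both libraries of the kallisto layout. They were Ccl24, Ccr9, Cxcl11, Cxcl3, Cxcl9, Cxcr2 and Xcr1. The largest difference was that of Cxcr2, the neutrophil receptor of Cxcl5, which was at 0 in the RSEM layout and had 59.7 and 68.6 counts in the kallisto layout. All of these lay on Cxcr2-202, of which 6.77% of the 50-base stretches also occur in 220 other genes. Cxcl9-201, with 14.3 and 11 kallisto-layout counts, shares 0.599% of its stretches with 119 other genes. The part of shared sequence in these counts was not tested.

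**Figure D5:**
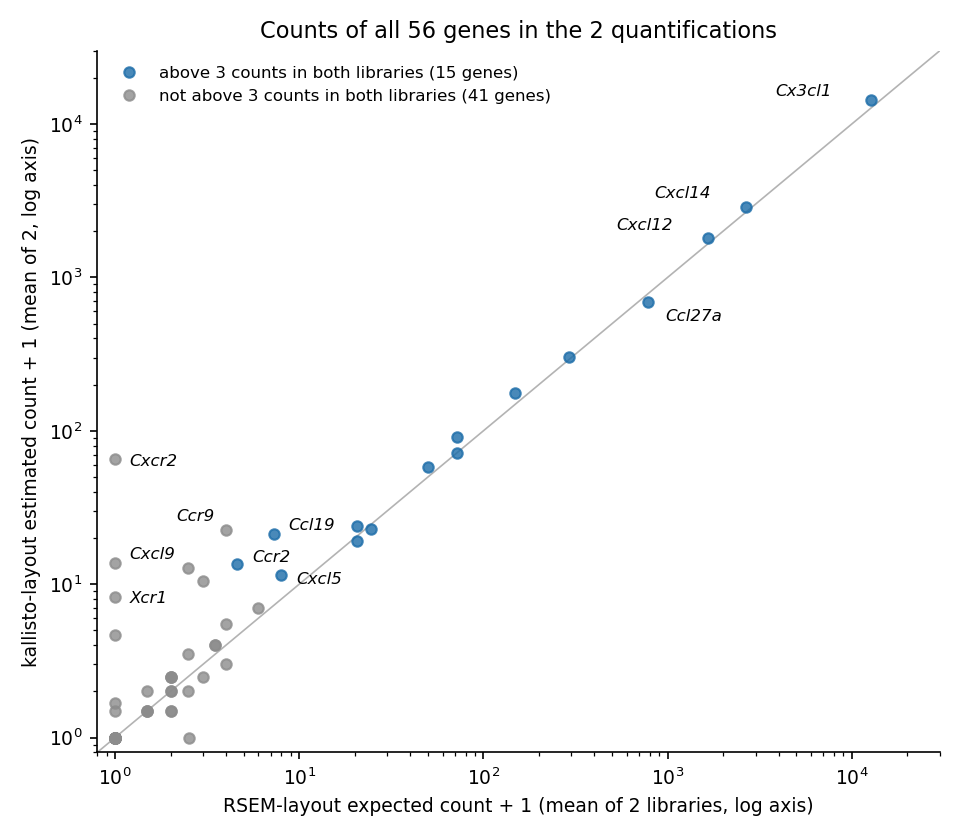
Mean count of 2 libraries plus 1 for each of the 56 genes in the RSEM layout (x axis) and the kallisto layout (y axis), both on log axes, blue for the 15 genes above the minimum and grey for the other 41; the line marks equal counts. The genes with many counts lie along the line, while Cxcr2, Cxcl9 and Xcr1 lie at the left edge, at 0 in the RSEM layout only.

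Many of the genes lie in clusters, some of which held no counted gene. Joined at gaps of up to 1 Mb, 39 of the 56 genes fell into 9 clusters, of which 4 held no gene above the minimum, and 17 stood alone. Of the 15 counted genes, 9 lay in clusters and 6 alone (Cxcr4, Cxcl16, Cxcl14, Ccl28, Cxcl12 and Ccl25). The cluster on chromosome 11 from Ccl2 to Ccl1 (82035571 to 82305690) held 6 genes, and none exceeded the minimum. In the cluster of 3 genes on chromosome 8, Cx3cl1 (94772009 to 94782427, plus strand) lay between Ccl22 and Ccl17, with 12668 counts in replicate 1 against 3 and 20.

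Other genes of the pathway reached 1 TPM in shares to be read against 57.8% of all nuclear protein-coding genes. Of 16 other genes of the chemokine system, 9 were at 1 TPM or more in both libraries. They included Adam10 at 27.60 and 28.87 TPM and Adam17 at 5.77 and 5.99, the proteases that shed fractalkine, and the atypical receptor Ackr1 at 22.30 and 24.05. Of 24 genes of receptor signalling, 21 reached 1 TPM, with the Gi subunit Gnai2 at 93.37 and 95.70 TPM, Gnai1 at 68.99 and 64.17, and the beta-arrestin Arrb1 at 67.68 and 59.88. Of 17 genes of chemokine induction, with the inhibitor gene Nfkbia among them, 10 reached 1 TPM. The first and last of these lists thus lay near the share of all genes. The inducing cytokines themselves were scarce, with Tnf and Il6 at 1 and 0 counts, Il1b at 1 and 2, and Ifng at 0 in both libraries.

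None of these genes was called apart, among 10, 22 and 11 genes of the 3 lists with a mean count of at least 50. Their median log2 ratios were 0.08, -0.02 and 0.04. Furthest apart among them was Gpr182, at 49 and 89 counts and 1.77-fold higher in replicate 2 (1.24 to 2.57). The NF-kB inhibitor gene Nfkbia, at 466 and 774 counts, was 1.62-fold higher in replicate 2 (1.44 to 1.82). Over all genes of that mean count, 1.64% were over 1.5-fold apart.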

How the data were processed

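Total RNA was sequenced from 2 hippocampus libraries of 1 group, with ERCC spike-ins, per the labels. The deposited gene tables have the column names of RSEM and give expected counts, posterior mean counts, TPM and FPKM per gene as the authors computed them. The authors' transcript tables of that layout add the percent of a gene's TPM held by each transcript. A second set of tables deposited by the authors, with kallisto column names, gives estimated counts and TPM per transcript, summed here per gene. Deposited notes name mm10 as the build and GENCODE M21 as the annotation. Not given in the sources used here are the aligner, any version and whether strand was used.

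Expected counts were rounded for scaling and folds, and the count minimum was applied before rounding. Numbered rows without a gene name held 2.78 and 6.00 counts and were left out, as were spike-ins, which took 0.493% and 0.489% of all counts. Libraries were scaled by TMM in edgeR 4.0.16 (R 4.3.3) after filterByExpr, which kept 17697 genes. Log2 ratios used a prior count of 2, and folds of single genes used no prior. Intervals (95%, exact binomial) treat the sum of the 2 counts as given. The tables hold reads without molecular identifiers, so intervals cover counting error only. Shared sequence was counted as stretches of 50 bases that occur on either strand in another gene's GENCODE M21 transcripts, and genes sharing at least 20 were named. All 56 genes matched the annotation. The fold procedure was tested on simulated data. Scripts ran under Python 3.11.15 with scipy 1.17.1 and numpy 2.4.6.

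Counted genes were named, except for 1 item that is not reported here, with full values at a mean of at least 1 TPM or over 2-fold apart at a mean count of at least 10, and genes of the pathway and marker lists could be named. The genes, lists and thresholds were chosen with earlier results of these data known. Alternatives were DESeq2 1.42.0 size factors, library or ERCC totals, other minimums, folds and prior counts, FPKM, TPM, posterior mean counts, the kallisto layout and each library alone. Summing Ccl27a with its near copies was added after seeing the data.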

Additional observations from a re-analysis of the deposited data

How the results depend on the processing

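The number of genes above the count minimum was 15 and came to 27 at a minimum of 0, 12 at 10 and 22 with kallisto-layout counts, which included all 15. It was 16 without replicate 1 and 20 without replicate 2. Of the 15 genes, 8 reached 1 TPM in both libraries, 5 reached 5 TPM and 11 reached 1 TPM in the kallisto layout, and 8 and 10 did so without replicate 1 and without replicate 2. No gene was over 2-fold apart under any of the other scalings tried, at 1.5-fold, at a mean count of 200 or in kallisto-layout counts, but 1 was at a mean count of 10 (Cxcl16) and 1 in TPM as deposited (Ccl9). The median log2 ratio lay between -0.08 (TPM as deposited) and 0.07 (mean in place of median). The ligand share was 98.5%, between 98.2% and 98.7% with each library alone, and 96.9% without Cx3cl1. Ccl27a was at 53.4 TPM alone and 64.1 TPM with its near copies. The 9 levels compared all moved in the kallisto layout, as did 6 of 9 leading transcript shares, while all 8 log2 ratios stayed within their counting intervals there and under ERCC totals. No paired analysis was possible because there was 1 group. The counts limit genes under about 10 counts, whose intervals span over 2-fold in a direction. Intervals also did so for some genes with more counts, such as Ccl17 (0.468 to 1.83), Ccl28 (0.969 to 2.27) and Cxcl16 (1.20 to 5.53).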
